A study of Mus musculus with 12 samples.

Results

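The SLC25 genes encode the solute carriers of the inner mitochondrial membrane, and their mRNA was followed here in the livers of wild-type and Atf6a-/- mice with and without tunicamycin (TM). A gene was taken as a member when its array symbol was Slc25a followed by a number, and among its probe sets that name 1 gene the one brightest on average across the 12 arrays stood for it. This gave 42 carriers of 18193 genes on the array.

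SLC25 carriers are encoded in the nucleus, made in the cytosol and inserted into the inner membrane, where each passes a small set of metabolites between cytosol and matrix. In the liver they connect the compartments for the urea cycle, gluconeogenesis, the malate-aspartate shuttle and fatty acid synthesis from exported citrate, and they supply the matrix with phosphate, adenine nucleotides, coenzyme A, NAD+, iron and glutathione. ATF6a sits in the membrane of the endoplasmic reticulum (ER) until stress there releases its transcription factor part, and TM causes ER stress by blocking N-linked glycosylation.

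Total RNA of whole liver homogenate was measured on Affymetrix arrays, with 3 mice in each of 4 groups. The groups were wild-type (Atf6a +/+) mice given vehicle, wild-type mice given TM, Atf6a-/- mice given vehicle and Atf6a-/- mice given TM. TM was injected into the peritoneum at 1 mg/kg in 150 mM dextrose, dextrose alone served as vehicle, and livers were taken 34 h later from mice of varying age and sex. Neither age nor sex was given per animal, and one label field states 8 h where titles and protocol state 34 h. Xist, which is expressed in females, was high in animal 1 of wild-type vehicle, Atf6a-/- vehicle and Atf6a-/- TM (12.2 to 12.4) and between 5.37 and 6.68 in all others, so the wild-type TM group alone held no Xist-high animal. With Xist as a covariate the call of Slc25a45 in wild-type livers (adjusted p = 0.0566) and that of Slc25a13 in the difference of responses (0.0514) were lost. All values are log2 signals of a probe set, so they compare samples and not carriers with each other. In whole liver, fewer cells of a type and less RNA per cell cannot be told apart.

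The brightest Atf6 probe set lay between 8.42 and 8.54 in wild-type and between 6.60 and 6.88 in Atf6a-/- mice after vehicle (adjusted p = 0.00611). After TM it lay between 9.30 and 9.72 in wild-type and between 9.23 and 9.81 in Atf6a-/- mice, and the sources used here do not say whether its probes lie in the deleted part. The first principal component held 68.3% of the variance, and on it the wild-type TM animal 2 (29.5) lay apart from the other wild-type TM animals (-12.9 and -11.9). In 4 arrays the mean of the skeletal muscle genes Acta1, Ckm, Myh1 and Myh4 was raised. It was 11.4 in wild-type vehicle animal 2, 7.46 in wild-type TM animal 2, and 6.99 and 8.83 in Atf6a-/- TM animals 1 and 3, against 4.06 to 4.85 in the others. Counts were therefore also taken without these 4 arrays. The hepatocyte gene Alb was high in every animal (14.2 to 14.8), while 4 of 6 hepatocyte markers measured, Hnf4a among them, were called lower in Atf6a-/- livers after TM and 2 in wild-type livers. The mean of the 6 ran from 13.6 to 13.8 in wild-type vehicle, 13.0 to 13.4 in wild-type TM, 13.4 to 13.8 in Atf6a-/- vehicle and 12.4 to 12.6 in Atf6a-/- TM livers. Of 7 macrophage markers, 2 were called higher and 4 lower in Atf6a-/- livers after TM, and 1 higher and 3 lower in wild-type livers. Of 5 neutrophil markers, S100a8 rose by 4.67 in Atf6a-/- (adjusted p = 7.28e-06) and by 2.31 in wild-type livers (adjusted p = 0.0081). S100a9 rose by 3.73 in Atf6a-/- livers (adjusted p = 0.000189). Ltf, Mpo and Elane were not called in either genotype, at -0.09, -0.05 and -0.05 in Atf6a-/- livers. The median of the 5 in Atf6a-/- livers was -0.05. The macrophage marker Cd68 lay between 9.0 and 9.90 in Atf6a-/- TM livers and between 5.56 and 7.23 in all others. Marco also rose in Atf6a-/- livers (1.58). The 4 called lower there were Vsig4 (-2.24), Clec4f (-1.76), Csf1r (-1.66) and Adgre1 (-0.76), and Timd4 was not called (-0.12). The macrophage markers thus had no common direction. The part of such shifts in the values below was not tested.

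A carrier was called when limma's adjusted p was under 0.05 and the change was over 1.5-fold. In wild-type livers 34 h of TM left 4 of 42 carriers called (9.52%), 2 higher and 2 lower, where 7.31% of all genes were called (3.45% higher, 3.86% lower). In Atf6a-/- livers 17 carriers were called (40.5%), 6 higher and 11 lower, where 28.0% of all genes were called (15.2% higher, 12.8% lower). After TM, 14 carriers differed between Atf6a-/- and wild-type livers (33.3%), 4 higher and 10 lower, where 19.7% of all genes differed (11.3% higher, 8.45% lower). Many genes of the array are dim in liver, and among the 12558 genes with at least 1 group mean above the highest array median of 4.71 10.5%, 40.2% and 28.3% were called. The 36 carriers that met the same condition were called at 11.1%, 47.2% and 38.9%. Lower calls made up 26.2% of all 42 carriers in the Atf6a-/- response and 23.8% between genotypes after TM, against 12.8% and 8.45% of all genes. Higher calls made up 14.3% and 9.52%, against 15.2% and 11.3%. All genes include the dim ones, which are rarely called, so these shares are not like for like. Of the 36 carriers 30.6% and 27.8% were lower, and the 12558 genes were not split by direction. No test was made of these shares.

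**Figure D1:**
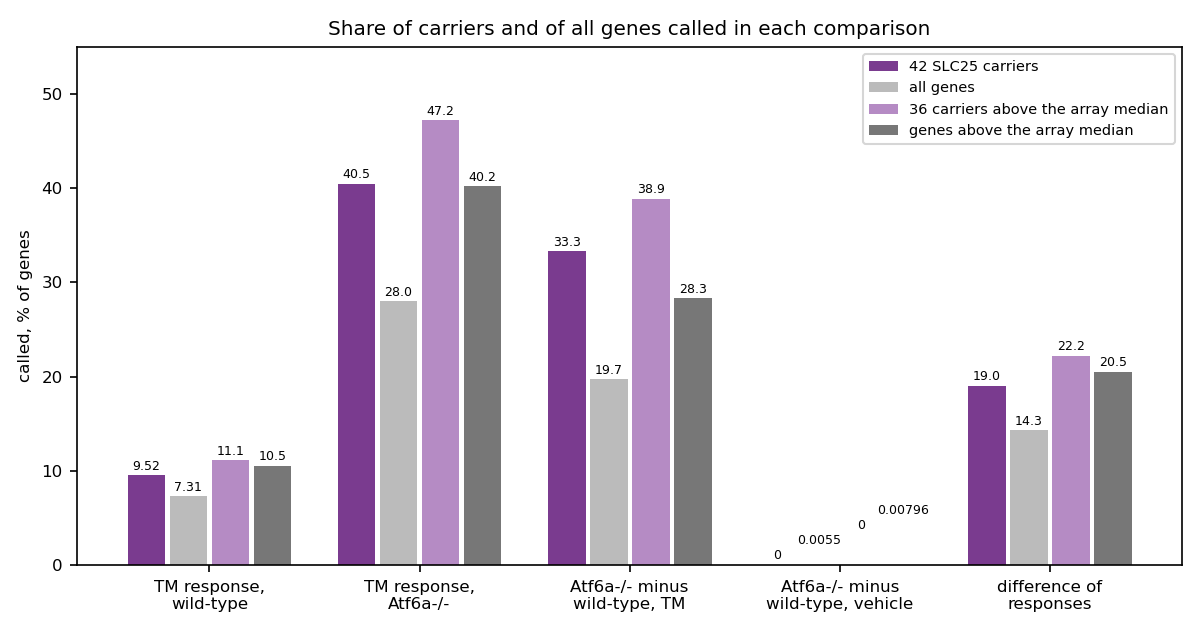
Percent called among the 42 SLC25 carriers, all 18193 genes, the 36 carriers and the 12558 genes above the array median in each comparison (adjusted p under 0.05 and over 1.5-fold), drawn as bars from 0. In the Atf6a-/- response the 42 carriers (40.5%) stand beside all genes (28.0%) and the 36 carriers (47.2%) beside genes above the median (40.2%), and no carrier was called between genotypes after vehicle.

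Without TM the genotypes could not be told apart in any carrier. After vehicle 0 of 42 carriers were called, where 0.0055% of all genes and 0.00796% of expressed genes (1 gene, Atf6) were called. At an unadjusted p under 0.05 there were 3, namely Slc25a29, Slc25a51 and Slc25a53, and the methods' t-test with the fold threshold gave 0. The genotypes' values did not overlap in 3 carriers, each lower in Atf6a-/- livers (Slc25a29, Slc25a34 and Slc25a53), against 8.09% of all genes.

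The responses to TM themselves differed between genotypes for 8 carriers (19.0%), with 2 higher and 6 lower in Atf6a-/- than in wild-type livers. Of all genes 14.3% differed (7.56% higher, 6.69% lower). Of the 36 carriers above the array median 22.2% differed, beside 20.5% of expressed genes. All 4 carriers called in wild-type livers were called in the same direction in Atf6a-/- livers, 13 were called in Atf6a-/- livers and not in wild-type livers, and none was called in opposite directions. The median change of the carriers was -0.12 in wild-type and -0.07 in Atf6a-/- livers on the log2 scale, beside -0.02 and -0.01 over all genes. TM and vehicle values did not overlap for 15 carriers in wild-type livers (26.8% of all genes) and for 25 in Atf6a-/- livers (47.8% of all genes), and the genotypes' values after TM did not overlap for 20 (35.7% of all genes). In 23 carriers no comparison was called by the brightest probe set. Of these, 6 (Slc25a2, Slc25a18, Slc25a31, Slc25a35, Slc25a41 and Slc25a54) were under the array median in every group. Slc25a53, also among the 23, has a dimmer probe set (3.61 on average). It was called higher in Atf6a-/- livers (0.92; adjusted p = 0.00631) and between genotypes after TM (0.80; 0.0212). The mean of the Slc25a53 probe sets was called in Atf6a-/- livers as well (0.62; 0.00262).

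Shifting each array to its hybridisation spike-ins or to Btf3 and Ppia moved the balance of directions. In wild-type livers the split was 6 higher and 1 lower with spike-ins and 2 higher and 3 lower with Btf3 and Ppia. In Atf6a-/- livers it was 14 higher and 9 lower with spike-ins and 4 higher and 21 lower with Btf3 and Ppia. Between genotypes after TM it was 4 and 7, and 2 and 16. For the difference of responses it was 2 and 6, and 1 and 13. No called carrier turned its direction under either. The median response of all probe sets tested in Atf6a-/- livers was 0.47 after spike-in scaling and -0.53 after Btf3 and Ppia scaling.

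**Figure D2:**
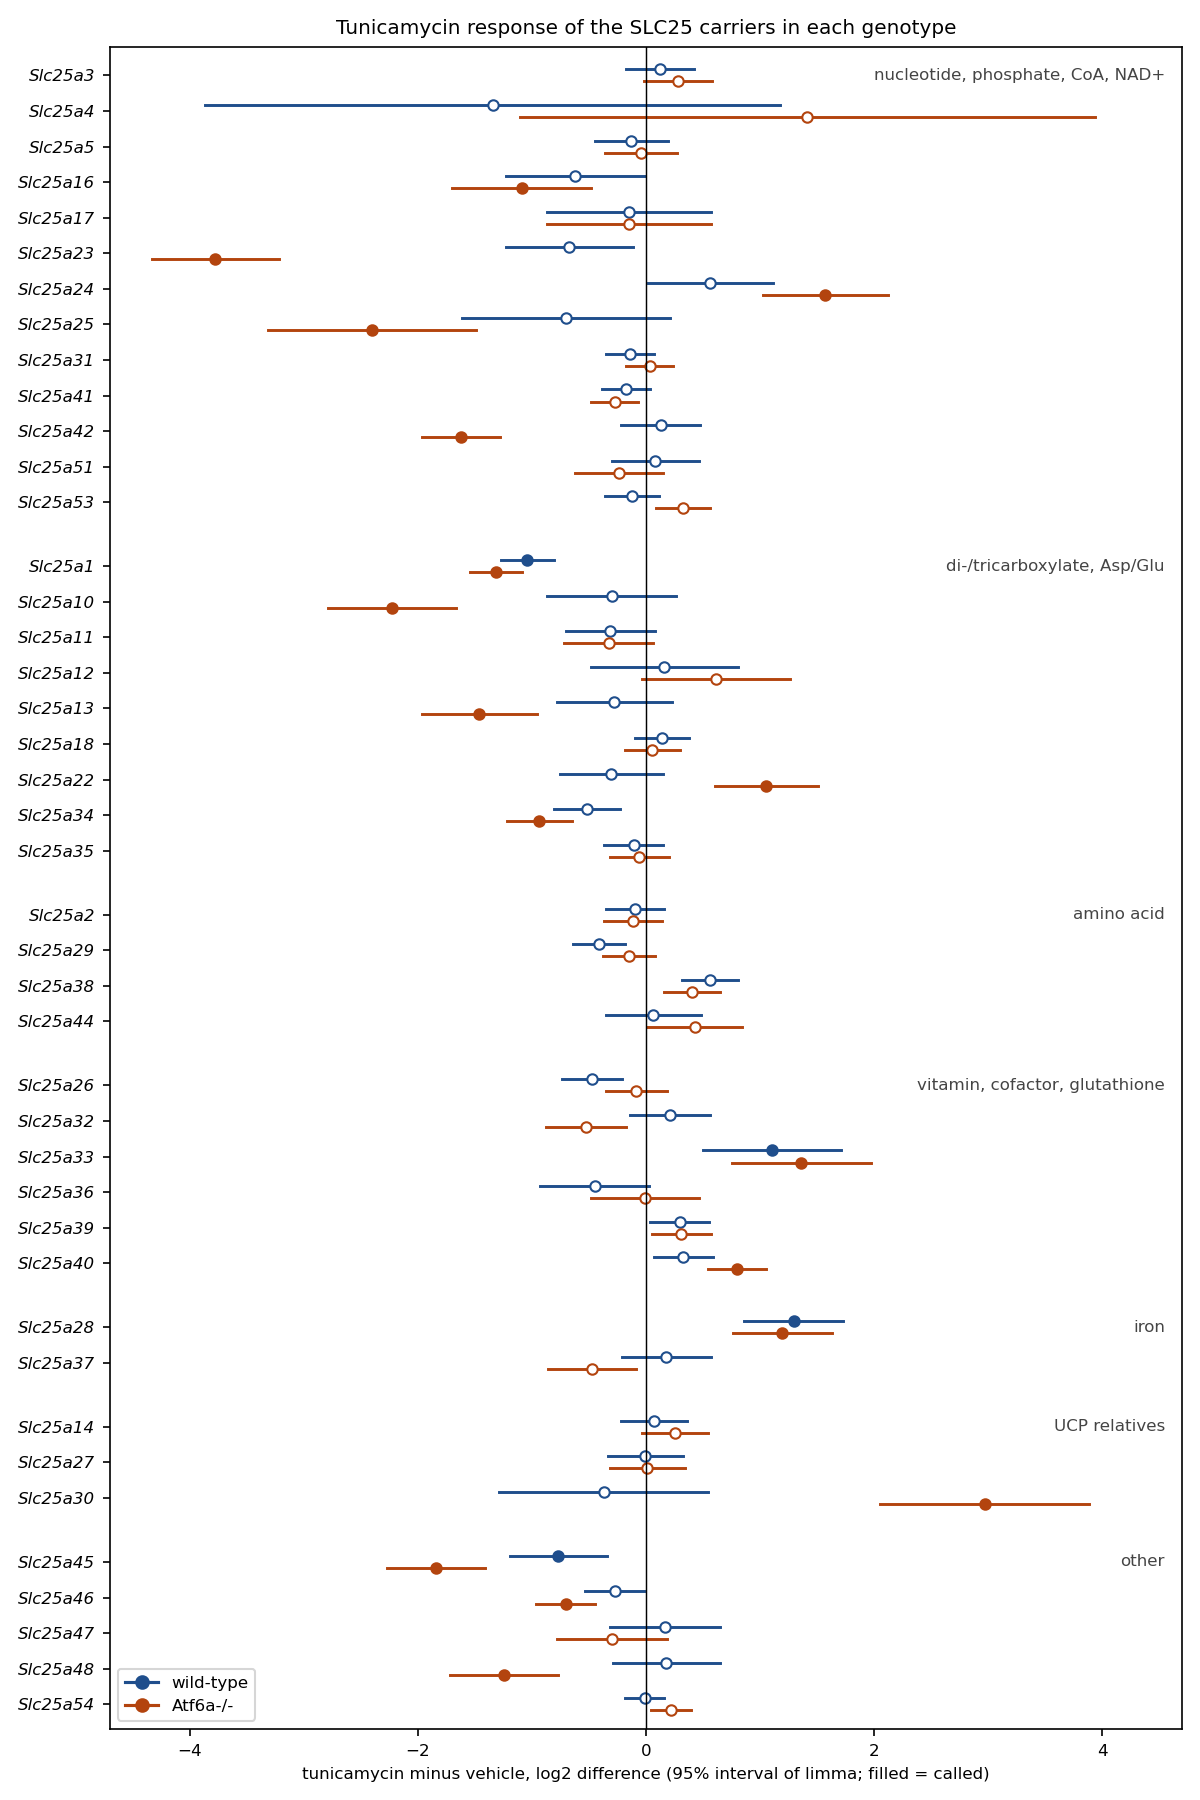
Log2 difference of TM minus vehicle for each of the 42 carriers in wild-type (blue) and Atf6a-/- livers (orange), ordered by role, with the 95% interval of the limma fit (3 mice per group) and filled points where the change was called. The 17 filled orange points spread from -3.78 (Slc25a23) to 2.97 (Slc25a30), while 4 blue points are filled.

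The carriers with the largest fall and with one of the rises belong to the same subfamily. Slc25a23, Slc25a24 and Slc25a25 encode calcium-regulated carriers that exchange ATP-Mg for phosphate and so set the adenine nucleotide content of the matrix. In Atf6a-/- livers after TM, Slc25a23 and Slc25a25 fell and Slc25a24 rose.

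Slc25a23 (chr17:57043711-57059909, GRCm38.p6) was 9.68, 9.24 and 9.23 in wild-type vehicle and 8.81, 8.13 and 9.19 in wild-type TM livers. It was 9.37, 9.29 and 9.46 in Atf6a-/- vehicle and 6.04, 5.52 and 5.23 in Atf6a-/- TM livers. The Atf6a-/- TM animals lay far below all others, and each wild-type TM animal lay below each wild-type vehicle animal. The fall in Atf6a-/- livers was -3.78 ± 0.26 (log2, SE; 13.7-fold; adjusted p = 5.59e-07), against -0.67 ± 0.26 in wild-type livers (adjusted p = 0.168). The responses differed by -3.10 ± 0.36 (adjusted p = 0.000271), and after TM the genotypes differed by -3.11 (8.66-fold; adjusted p = 7.41e-06).

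Slc25a25 (chr2:32414487-32451470) was 10.58, 9.29 and 10.32 in wild-type vehicle, 9.56, 8.55 and 9.99 in wild-type TM, 10.29, 9.47 and 9.75 in Atf6a-/- vehicle and 8.01, 7.37 and 6.92 in Atf6a-/- TM livers. Its wild-type groups overlapped and its spread was wide, but the Atf6a-/- TM animals lay below all others. The fall in Atf6a-/- livers was -2.40 ± 0.42 (5.30-fold; adjusted p = 0.00078) and the genotypes differed after TM by -1.93 (adjusted p = 0.00582). The difference of responses, -1.71 ± 0.59, did not pass (adjusted p = 0.0971), but it was called in 5 of 23 alternatives (0.0188 to 0.0292), among them those with the Xist covariate, without the arrays with muscle transcripts and without wild-type TM animal 2. The other 2 probe sets of Slc25a25 were not called in Atf6a-/- livers (-0.51 and -0.07), and with the mean of probe sets the fall was -0.99.

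Slc25a24 (chr3:109123149-109168409) was 4.89, 5.02 and 4.25 in wild-type vehicle, 4.84, 5.80 and 5.23 in wild-type TM, 4.98, 4.84 and 4.39 in Atf6a-/- vehicle and 6.27, 6.44 and 6.22 in Atf6a-/- TM livers. It lay near the array median without TM, and the Atf6a-/- TM animals were above all others. The rise in Atf6a-/- livers was 1.57 ± 0.25 (2.98-fold; adjusted p = 0.00041) and the genotypes differed after TM by 1.02 (adjusted p = 0.0123). The last call was lost without wild-type TM animal 1 (adjusted p = 0.0524), with the mean of both probe sets (0.58, under the fold threshold) and with Btf3 and Ppia scaling (0.0547). Slc25a41, the calcium-independent relative, was under the array median in every group.

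The 250 bases before the annotated start are shown for Slc25a23 and Slc25a24, which moved in opposite directions, and for Slc25a30, the carrier with the largest rise. They are RefSeq sequence of GRCm38.p6, 5′ to 3′ on the gene's strand, at chr17:57059843-57060092 (minus), chr3:109122899-109123148 (plus) and chr14:75787038-75787287 (minus). Slc25a23 has a further annotated start whose window overlaps this one. Capitals mark CCAAT and GC boxes (CCAAT and GGGCGG, either strand).
Slc25a23: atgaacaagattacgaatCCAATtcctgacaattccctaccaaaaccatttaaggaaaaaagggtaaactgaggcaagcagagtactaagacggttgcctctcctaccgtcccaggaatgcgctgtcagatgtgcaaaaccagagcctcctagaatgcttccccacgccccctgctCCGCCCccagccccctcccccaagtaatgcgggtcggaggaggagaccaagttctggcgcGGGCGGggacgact
Slc25a24: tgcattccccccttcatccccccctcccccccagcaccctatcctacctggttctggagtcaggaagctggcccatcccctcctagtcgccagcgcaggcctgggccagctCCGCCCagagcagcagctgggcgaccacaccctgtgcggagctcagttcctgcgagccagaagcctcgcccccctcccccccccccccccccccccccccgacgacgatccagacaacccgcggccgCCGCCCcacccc
Slc25a30: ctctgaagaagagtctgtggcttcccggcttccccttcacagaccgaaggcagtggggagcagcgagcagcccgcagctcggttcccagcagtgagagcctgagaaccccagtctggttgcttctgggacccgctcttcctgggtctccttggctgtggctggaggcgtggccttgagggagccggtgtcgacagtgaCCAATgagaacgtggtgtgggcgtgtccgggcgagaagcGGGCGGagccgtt

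Slc25a23 and Slc25a30 each held 1 CCAAT box, Slc25a24 held none, and no TATA box (TATAAA) was found in the 3 stretches. RefSeq windows from 250 bases before to 50 after the start were at hand for 32 of 42 carriers. On either strand a GC box was in 27 of the 32 (49.2% of protein-coding genes), a CCAAT box in 18 (42.3%) and a TATA box in 1, Slc25a18 (14.8%). None of the 32 held the ER stress motifs ERSE or UPRE (TGACGTGG), the C/EBP-ATF motif (TGATGNAAN), the HNF4 core (CAAAGTCCA), the ERR motif (TCAAGGTCA) or the PPRE. Those letters were in 0.166%, 0.823%, 4.11%, 0.52%, 0.377% and 0.0572% of protein-coding genes, in that order. The median GC content was 63.0% in 8 windows of 6 carriers that rose in Atf6a-/- livers and 59.0% in 13 windows of 10 that fell. It was 59.7% in 19 windows of 16 carriers not called there, 59.7% over all carriers and 56.3% over protein-coding genes. No test was made.

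Among the other carriers of nucleotides, phosphate and cofactor nucleotides, the one for coenzyme A fell in Atf6a-/- livers. Slc25a42 (chr8:70184340-70212281), which brings coenzyme A into the matrix, was 9.61, 9.06 and 9.12 in wild-type vehicle, 9.22, 9.37 and 9.58 in wild-type TM, 9.0, 9.18 and 9.39 in Atf6a-/- vehicle and 7.69, 7.48 and 7.55 in Atf6a-/- TM livers. The first 3 groups overlapped and the Atf6a-/- TM animals lay together below them. The fall was -1.62 ± 0.16 in Atf6a-/- livers (3.07-fold; adjusted p = 8.47e-06), and the responses differed by -1.75 ± 0.22 (adjusted p = 0.000469). Slc25a16, whose transport is less settled and has been linked to coenzyme A, fell by 1.09 in Atf6a-/- livers (adjusted p = 0.0106), which did not hold without Atf6a-/- vehicle animal 2 (0.0502).

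Slc25a51 (chr4:45395923-45408917), the NAD+ carrier, was 10.64, 10.04 and 10.45 in wild-type vehicle, 10.64, 10.18 and 10.56 in wild-type TM, 9.99, 10.12 and 9.69 in Atf6a-/- vehicle and 9.56, 9.66 and 9.86 in Atf6a-/- TM livers. It differed between genotypes after TM by -0.76 ± 0.18 (adjusted p = 0.00853), while neither TM response was called. Under vehicle the difference was -0.44 with an unadjusted p of 0.0274, and the vehicle values of wild-type and Atf6a-/- livers overlapped. The call was lost with spike-in scaling and with the mean of its 3 probe sets.

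The carriers of the ATP synthesis substrates did not pass in any comparison. Slc25a3, the phosphate carrier, and Slc25a5, an ADP/ATP carrier, changed by 0.28 and -0.04 in Atf6a-/- livers, with intervals from -0.02 to 0.58 and from -0.36 to 0.28. Slc25a17, a peroxisomal member of the family, changed by -0.15 in both genotypes.

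Slc25a4 (chr8:46207168-46211062), the ADP/ATP carrier of heart and skeletal muscle, followed the muscle transcripts across animals. It was 6.81, 12.23 and 7.31 in wild-type vehicle, 6.90, 8.43 and 6.99 in wild-type TM, 7.07, 7.11 and 6.73 in Atf6a-/- vehicle and 8.85, 6.86 and 9.46 in Atf6a-/- TM livers. The 4 animals above 8 are the 4 with raised muscle genes. The responses were -1.34 ± 1.15 and 1.42 ± 1.15 and neither passed (adjusted p = 0.632 and 0.434). Without those 4 arrays the responses were -0.11 and -0.11.

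**Figure D3:**
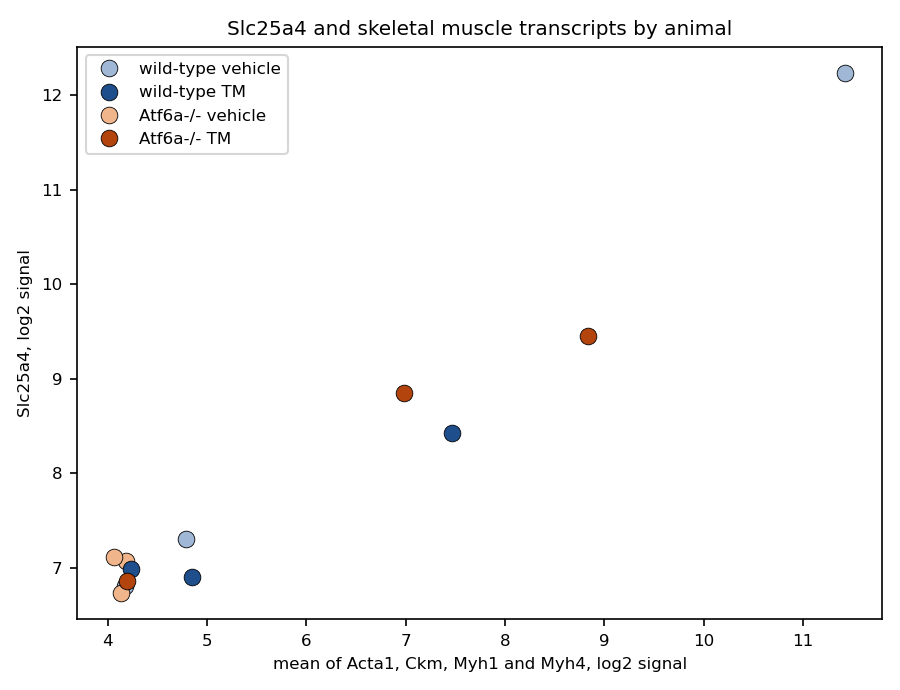
Slc25a4 (vertical) against the mean of the 4 skeletal muscle genes (horizontal), both log2 signals, with 1 point per animal coloured by group. The 8 animals with muscle means of 4.06 to 4.85 have Slc25a4 between 6.73 and 7.31, and the other 4 lie between 8.43 and 12.23.

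Carriers of di- and tricarboxylates and of aspartate and glutamate also moved in both directions. Slc25a1 (chr16:17925211-17928219), the citrate carrier that provides cytosolic acetyl-CoA for lipid synthesis, fell in both genotypes. It was 10.73, 11.01 and 10.98 in wild-type vehicle, 9.91, 9.77 and 9.93 in wild-type TM, 11.00, 11.03 and 10.88 in Atf6a-/- vehicle and 9.55, 9.63 and 9.80 in Atf6a-/- TM livers. TM and vehicle animals did not overlap in either genotype, while the genotypes overlapped. The change was -1.04 ± 0.10 in wild-type (2.05-fold; adjusted p = 0.000135) and -1.31 ± 0.10 in Atf6a-/- livers (2.49-fold; adjusted p = 1.9e-06). The responses differed by -0.28, with an interval from -0.60 to 0.05 (adjusted p = 0.328).

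Slc25a10 (chr11:120491837-120501161), the carrier that exchanges malate and succinate for phosphate, was 11.43, 11.09 and 11.10 in wild-type vehicle, 11.27, 10.39 and 11.05 in wild-type TM, 11.51, 11.03 and 11.03 in Atf6a-/- vehicle and 8.77, 8.63 and 9.49 in Atf6a-/- TM livers. Of the wild-type TM animals, animal 2 was the low one, and the Atf6a-/- TM animals were below all others. The fall in Atf6a-/- livers was -2.23 ± 0.26 (4.68-fold; adjusted p = 3.4e-05), and the responses differed by -1.93 ± 0.36 (adjusted p = 0.00539). Its other probe set fell by 2.43 (adjusted p = 5.5e-05).

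Slc25a13 (chr6:6041218-6217304), the aspartate/glutamate carrier of liver and a part of the malate-aspartate shuttle and the urea cycle, was 11.05, 10.85 and 10.97 in wild-type vehicle, 11.17, 10.23 and 10.64 in wild-type TM, 11.17, 11.16 and 10.76 in Atf6a-/- vehicle and 9.35, 9.35 and 10.00 in Atf6a-/- TM livers. Only the Atf6a-/- TM animals lay clear of the other groups. The fall was -1.46 ± 0.23 (2.75-fold; adjusted p = 0.000399), and the genotypes differed after TM by -1.11 (adjusted p = 0.00476). The difference of responses, -1.18 ± 0.33 (adjusted p = 0.0391), was lost in 10 of 23 alternatives, 9 of which left out 1 animal. Slc25a12, its paralog outside the liver, was not called in Atf6a-/- livers at 0.61, with an interval from -0.03 to 1.26, and the difference between the paralogs was not tested.

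Slc25a22 (chr7:141429749-141437874), a glutamate carrier, was 11.11, 10.56 and 10.80 in wild-type vehicle, 10.89, 10.37 and 10.29 in wild-type TM, 10.81, 10.60 and 10.35 in Atf6a-/- vehicle and 11.98, 11.36 and 11.59 in Atf6a-/- TM livers. The Atf6a-/- TM animals lay above all others by a narrow margin. It rose by 1.06 ± 0.21 (adjusted p = 0.00188) and the responses differed by 1.36 ± 0.29 (adjusted p = 0.011). Without the 4 arrays with muscle transcripts, which leaves 1 Atf6a-/- TM array, no call of Slc25a22 remained. The rise was then 0.77, the difference between genotypes after TM 0.77 and the difference of responses 1.14. With Btf3 and Ppia scaling the rise was 0.54 (adjusted p = 0.0424), under the fold threshold. Slc25a34, of less settled transport, fell by 0.93 in Atf6a-/- livers (adjusted p = 0.000161), which was -0.45 and not called with spike-in scaling. Slc25a11, the oxoglutarate/malate carrier, was not called at -0.33.

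Of the 4 carriers of glycine, basic and branched-chain amino acids and ornithine, none was called. Slc25a38, which supplies glycine for haem synthesis, lay at 0.56 in wild-type livers with an adjusted p of 0.0101 and at 0.41 in Atf6a-/- livers with one of 0.0159, under the fold threshold in both. In some alternatives it was called higher in wild-type livers, among them spike-in scaling (0.91; adjusted p = 0.00248) and the Xist covariate (0.61; 0.00644). Spike-in scaling also gave a call in Atf6a-/- livers (0.89; 0.000594). Slc25a29, a carrier of basic amino acids, lay at -0.41 after TM in wild-type livers (adjusted p = 0.0354) and was not called in Atf6a-/- livers either (-0.15). Slc25a44, the carrier of branched-chain amino acids, was not called by its brightest probe set (0.43), while another of its 3 was called lower in Atf6a-/- livers (-0.73; adjusted p = 0.000366).

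Of the carriers of nucleotides for DNA and RNA, cofactors and glutathione, Slc25a33 and Slc25a40 rose. Slc25a33 (chr4:149744036-149774267), a pyrimidine nucleotide carrier, was 8.89, 9.64 and 9.63 in wild-type vehicle, 10.22, 10.76 and 10.50 in wild-type TM, 8.47, 9.40 and 9.51 in Atf6a-/- vehicle and 10.27, 10.71 and 10.47 in Atf6a-/- TM livers. TM animals lay above vehicle animals in both genotypes. In each vehicle group the low animal was animal 1, which was the Xist-high one, while the wild-type TM group held no Xist-high animal. Slc25a33 was still called higher in both genotypes with Xist as a covariate. It rose by 1.36 ± 0.28 in Atf6a-/- (2.57-fold; adjusted p = 0.00249) and by 1.10 ± 0.28 in wild-type livers (adjusted p = 0.0344). The wild-type call was lost in 7 of 24 alternatives (adjusted p up to 0.164), among them those without wild-type vehicle animals 1, 2 or 3 and without wild-type TM animals 2 or 3.

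Slc25a40 (chr5:8422730-8454839), a glutathione carrier, was 5.07, 5.48 and 5.41 in wild-type vehicle, 5.69, 5.71 and 5.55 in wild-type TM, 5.58, 5.52 and 5.39 in Atf6a-/- vehicle and 6.31, 6.17 and 6.39 in Atf6a-/- TM livers. The Atf6a-/- TM animals lay above all others. It rose by 0.80 ± 0.12 (1.74-fold; adjusted p = 0.000223) and differed between genotypes after TM by 0.64 (adjusted p = 0.00202). With Btf3 and Ppia scaling it lay at 0.28 (adjusted p = 0.1) and 0.21 (0.219). Without the arrays with muscle transcripts, which leaves 1 Atf6a-/- TM array, the genotypes lay 0.55 apart after TM and were not called different. Slc25a39, its paralog, depended on the probe set. The brightest one, at 14.0 on average and near the top of the scale (14.9), lay at 0.30 and 0.31 and was not called. Of its other 4 probe sets, 2 were called higher in both genotypes, one at 0.82 and 1.13 (wild-type, then Atf6a-/- livers) and one at 0.75 and 0.97. Another was called in Atf6a-/- livers (0.63) and not in wild-type livers (0.58), and the remaining one, at 0.58 in Atf6a-/- livers, was not called.

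Slc25a32, a folate and FAD carrier, was called lower between genotypes after TM (-0.67; adjusted p = 0.011). Its Atf6a-/- TM animals lay at 6.10, 6.12 and 6.08 and its wild-type TM animals at 6.66, 6.73 and 6.91. That call was lost in 4 of 24 alternatives, the one without wild-type TM animal 3 and the one without the arrays with muscle transcripts among them. Slc25a26, the S-adenosylmethionine carrier, and Slc25a36, a pyrimidine nucleotide carrier, were not called.

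Of the 2 iron carriers, 1 rose in both genotypes. Slc25a28 (chr19:43663801-43675006), the mitoferrin of most tissues, was 8.84, 8.59 and 8.65 in wild-type vehicle, 9.67, 10.57 and 9.72 in wild-type TM, 8.88, 8.69 and 8.58 in Atf6a-/- vehicle and 9.88, 9.87 and 9.99 in Atf6a-/- TM livers. Every TM animal lay above every vehicle animal, and the highest was wild-type TM animal 2. It rose by 1.30 ± 0.20 in wild-type (2.46-fold; adjusted p = 0.00206) and by 1.20 ± 0.20 in Atf6a-/- livers (2.29-fold; adjusted p = 0.000568). The responses differed by -0.10, with an interval from -0.71 to 0.52. Slc25a37, the mitoferrin of red cell precursors, was not called in either genotype (0.18 and -0.47), and the genotypes lay -0.57 apart after TM (adjusted p = 0.0417), under the fold threshold.

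Of the 3 relatives of the uncoupling proteins, Slc25a30 had the largest rise of all carriers. Slc25a30 (chr14:75757534-75787037) was 7.67, 7.59 and 8.19 in wild-type vehicle, 6.82, 8.24 and 7.29 in wild-type TM, 6.32, 7.79 and 7.39 in Atf6a-/- vehicle and 9.53, 10.49 and 10.40 in Atf6a-/- TM livers. The first 3 groups overlapped over a wide range and the Atf6a-/- TM animals lay above all of them. It rose by 2.97 ± 0.42 in Atf6a-/- livers (7.85-fold; adjusted p = 0.000161), against -0.37 ± 0.42 in wild-type livers (adjusted p = 0.741). The responses differed by 3.34 ± 0.59 (adjusted p = 0.00375). Of its other 4 probe sets, 3 were called in the same direction, at 2.28, 2.44 and 1.54, and the fourth was dim. Slc25a14 and Slc25a27 were not called.

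The last 5 carriers fit none of the roles above, and 3 of them (Slc25a45, Slc25a46 and Slc25a48) fell in Atf6a-/- livers. Slc25a45 (chr19:5877801-5885768) was 8.72, 8.64 and 9.15 in wild-type vehicle, 8.31, 8.13 and 7.76 in wild-type TM, 8.92, 8.87 and 8.85 in Atf6a-/- vehicle and 7.03, 7.41 and 6.67 in Atf6a-/- TM livers. The wild-type TM animals lay between the vehicle animals and the Atf6a-/- TM animals, with no overlap. It fell by 1.84 ± 0.20 in Atf6a-/- livers (3.58-fold; adjusted p = 1.8e-05). The fall of 0.77 in wild-type livers (adjusted p = 0.0368) was lost in 14 of 24 alternatives (up to 0.148), and the difference of responses, -1.07 ± 0.28 (adjusted p = 0.0283), in 9 of 23. Without the arrays with muscle transcripts, which leaves 1 Atf6a-/- TM array, the difference between genotypes after TM (-1.03; adjusted p = 0.00265) was -0.62 and not called either.

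Slc25a48 (chr13:56437960-56472367) was 6.70, 6.13 and 6.70 in wild-type vehicle, 6.68, 6.28 and 7.11 in wild-type TM, 6.97, 6.53 and 6.92 in Atf6a-/- vehicle and 5.69, 5.60 and 5.40 in Atf6a-/- TM livers. The Atf6a-/- TM animals lay below all others. It fell by 1.24 ± 0.21 (2.37-fold; adjusted p = 0.00075), and the responses differed by -1.42 ± 0.30 (adjusted p = 0.0106). Its other probe sets, dim at 4.23 and 4.14 on average, were not called in Atf6a-/- livers (-0.17 and -0.49). After TM the genotypes differed by -1.13 (adjusted p = 0.00268). With the mean of probe sets that difference was -0.53, under the fold threshold. Slc25a46, a protein of the outer membrane that bears on mitochondrial shape, fell by 0.70 (adjusted p = 0.000593), a call lost with spike-in scaling (0.131), and its other probe set was not called (-0.55). Slc25a47, a carrier found mainly in liver, was not called in Atf6a-/- livers at -0.30. After TM the genotypes lay -0.65 apart, which did not pass (adjusted p = 0.0612). That difference was called lower in some alternatives. Among them were quantile normalization done again (-0.65; adjusted p = 0.0128) and Btf3 and Ppia scaling (-1.08; 0.000492).

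**Figure D4:**
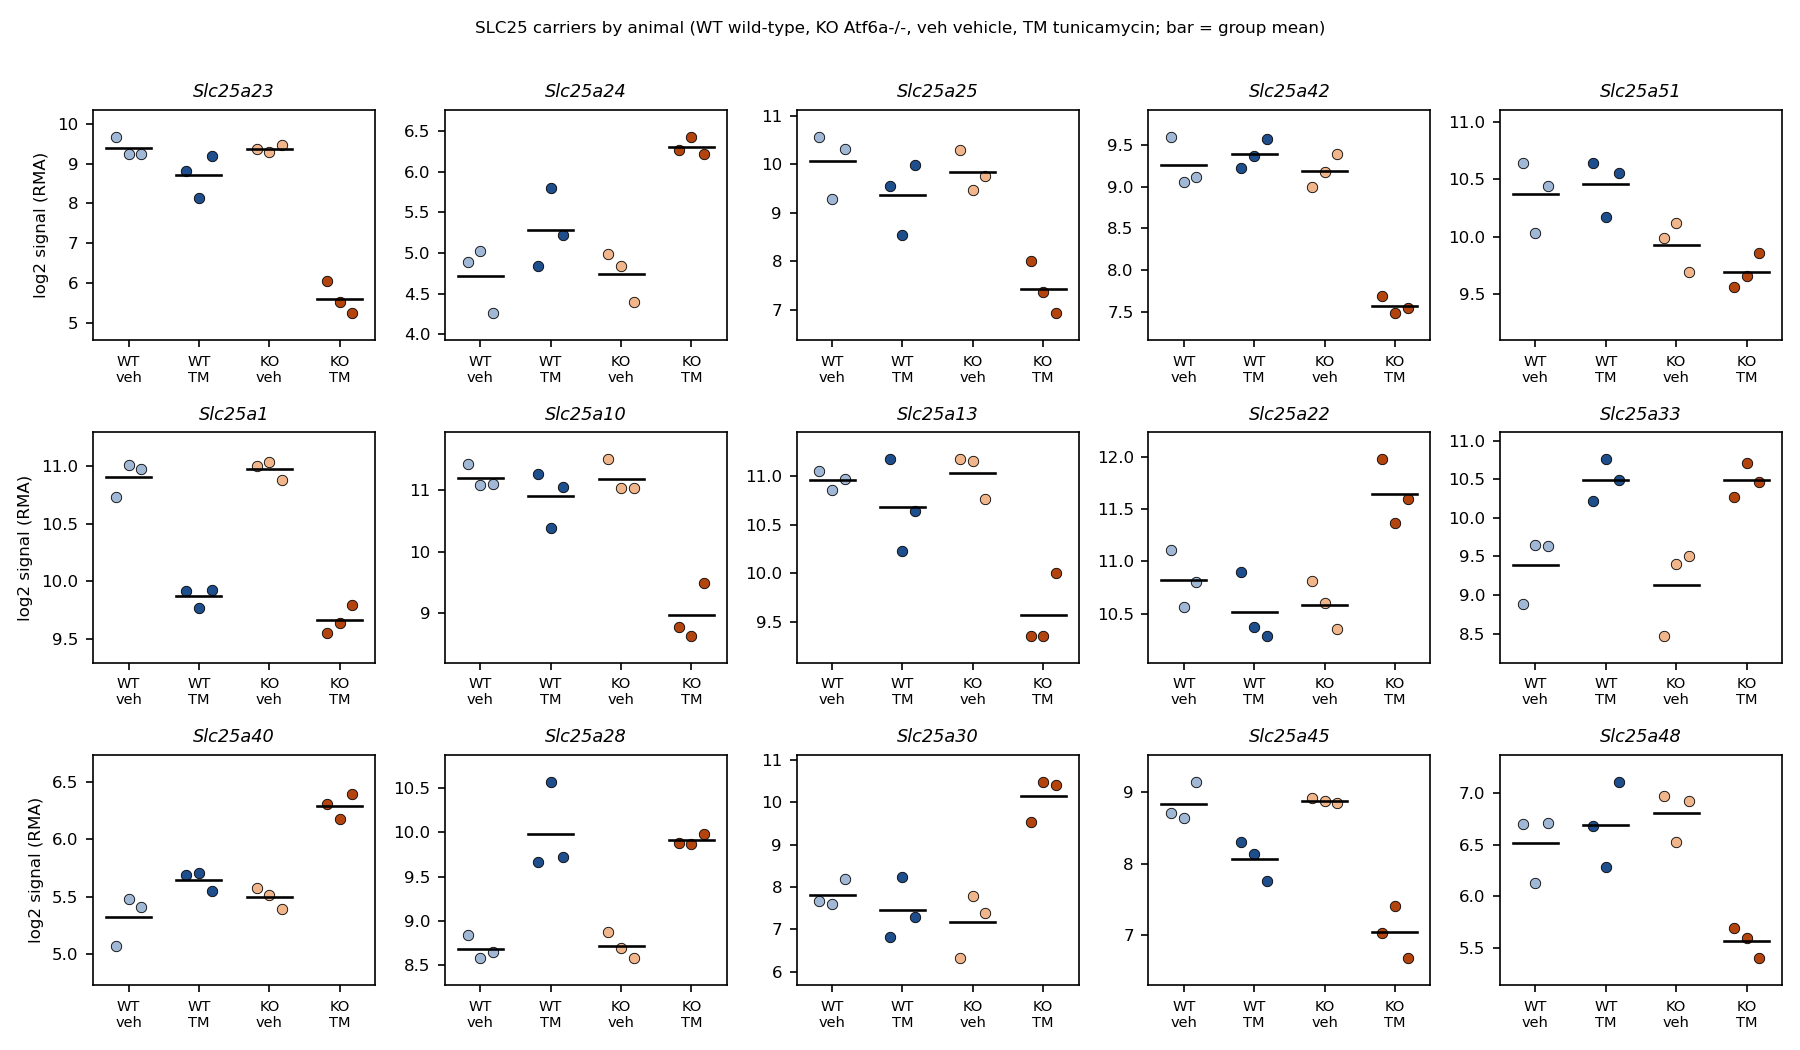
Log2 signal of 15 carriers with their values above (Slc25a4 has its own plot), 1 point per mouse with a bar at the group mean and a separate scale in each panel (WT wild-type, KO Atf6a-/-, veh vehicle). In 11 panels the KO TM animals lie clear of all 9 others, and in those of Slc25a1, Slc25a23, Slc25a28, Slc25a33 and Slc25a45 both TM groups lie clear of both vehicle groups. The 15 were picked for their called changes, so such separation is partly built in. The share of all genes that separate in this way was not taken.

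Genes that work beside the carriers were counted as well, and their counts stand against the shares of all genes called higher (15.2%) and lower (12.8%) in Atf6a-/- livers and of expressed genes called in either direction (40.2%). Of 12 measured genes for import of carriers into the inner membrane, 4 were called higher and 0 lower in Atf6a-/- livers (median 0.37, against -0.01 over all genes), a count near the share of expressed genes. Tomm20, a receptor of the outer membrane, rose by 1.49 (adjusted p = 3.31e-05), and the small chaperones Timm10 and Timm10b rose by 1.22 and 1.21. None of the 12 was called in wild-type livers.

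Of 7 measured enzymes and transporters of haem and iron-sulfur synthesis, 5 were lower and 1 higher in Atf6a-/- livers (median -0.82), and the call of Cpox, one of the 5, changed in 4 alternatives. Alas1, the rate-limiting enzyme of haem synthesis, fell by 3.34 (adjusted p = 5.73e-06). Abcb10, a carrier of the inner membrane outside the SLC25 family, fell by 1.90 (adjusted p = 2.33e-05) and Ppox, an enzyme late in the pathway, rose by 0.90 (adjusted p = 0.00408). None of the 7 was called in wild-type livers, where Slc25a28 rose.

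Of 9 enzymes on both sides of the malate-aspartate and citrate shuttles, 3 were called lower in wild-type livers, and 1 lower and 2 higher in Atf6a-/- livers. The wild-type calls of Me1, the cytosolic malic enzyme (-1.12; adjusted p = 0.0403), and of Cs (-0.76; adjusted p = 0.0292) changed in 12 and 8 alternatives. Gpd1, the cytosolic glycerol-phosphate dehydrogenase, fell by 1.20 in wild-type (adjusted p = 0.00118) and by 1.85 in Atf6a-/- livers (adjusted p = 5.42e-06). Cs, citrate synthase, rose by 1.07 in Atf6a-/- livers (adjusted p = 0.000736), and its responses differed by 1.83 (adjusted p = 0.000991). Mdh2, the malate dehydrogenase of the matrix, rose by 0.91 in Atf6a-/- livers (adjusted p = 0.00428).

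Of 7 regulators of mitochondrial genes, 4 were lower and 1 higher in Atf6a-/- livers (median -0.75). Ppara, the receptor that drives fatty acid oxidation genes, fell by 4.91 (adjusted p = 8.44e-09) and by 1.20 in wild-type livers (adjusted p = 0.0017). Ppargc1b, a coactivator, fell by 2.72 (adjusted p = 3.16e-06) and Nrf1, a transcription factor, rose by 0.84 (adjusted p = 0.00511). Of the 6 genes measured for mitochondrial content, 2 rose in Atf6a-/- livers (Hspa9 by 1.23, Cycs by 0.99), 1 fell (Phb2 by 0.77) and 3 were not called, so they had no common direction.

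Of 4 measured uncoupling and carrier-like proteins, 2 were lower in Atf6a-/- livers. Mtch1 and Mtch2, outer membrane proteins related to the carriers, fell by 1.30 (adjusted p = 0.00128) and 0.69 (adjusted p = 0.0022). Of the 4 measured subunits of the pyruvate carrier and outer membrane channels, Mpc1, the pyruvate carrier subunit, fell by 1.02 (adjusted p = 0.000249) and Vdac3, a channel, rose by 0.59 (adjusted p = 0.0116), just over the fold threshold, a call that changed in 5 alternatives.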

How the data were processed

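Liver RNA of 12 mice was hybridised to Affymetrix arrays, 1 array per mouse, in 4 groups of 3. The deposited values are log2 signals, which the authors obtained by RMA, a method that subtracts background, brings the arrays to 1 distribution by quantiles and summarises the probes of a set. The processing notes name affy, limma and RMA without versions. The table holds 45101 features, and 64 control probe sets were left out, which leaves 45037. Probe sets were named from the platform annotation, with 34945 linked to 1 symbol. Depth is not defined for arrays, so the number of arrays limits the precision. The highest correlation of 2 arrays was 0.995, and none were identical. The 3 mice of a group were separate animals.

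For each probe set limma (version 3.58.1, under R 4.3.3) fitted 4 group means, followed by contrasts.fit and eBayes. The 5 contrasts were the TM response of each genotype, the genotypes after TM and after vehicle, and the difference of the responses. P-values are two-sided and were adjusted by Benjamini-Hochberg across every probe set, and a call needed an adjusted p under 0.05 and over 1.5-fold. Errors are the fit's standard errors, and intervals are its 95% intervals. The methods' t-test was run on the same values.

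Values per animal are given for carriers among the 8 largest called rises and falls of each comparison that TM enters and for those called in the difference of responses. Slc25a4 falls outside this rule and was added after its values were seen. Alternatives were other normalizations and scalings, a filter on dim probe sets, the mean of probe sets, other variance models, an Xist covariate, a replicate block and each animal left out. Leaving out the 4 arrays with muscle transcripts, and the CCAAT, GC and TATA boxes, were added after the values were seen. Members and gene lists were chosen with earlier results of these data known. A further 2 family members are not reported here. Counts used pandas 2.3.3 (Python 3.11.15), and figures used matplotlib 3.10.9.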

Additional observations from a re-analysis of the deposited data

Results flagged for a closer look

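The response to TM differed between Atf6a-/- and wild-type livers, by a test of the difference itself, for 8 carriers. The difference (Atf6a-/- minus wild-type response, log2) was -3.1 for Slc25a23, -1.93 for Slc25a10, -1.75 for Slc25a42, -1.42 for Slc25a48, -1.18 for Slc25a13, -1.07 for Slc25a45, 1.36 for Slc25a22 and 3.34 for Slc25a30. The calls of Slc25a10, Slc25a23, Slc25a30, Slc25a42 and Slc25a48 held in all 23 alternatives. Those of Slc25a13, Slc25a22 and Slc25a45 did not, as given with their values above.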

How the results depend on the processing

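No called carrier changed direction under any alternative. Of the carriers called, 2 of 4 in the wild-type response, 12 of 17 in the Atf6a-/- response, 6 of 14 between genotypes after TM and 5 of 8 in the difference of responses kept their call throughout, and the cause of the losses was not tested. The 4 calls in wild-type livers became 7 with spike-in scaling, 8 with no fold threshold, 0 by the methods' t-test after Benjamini-Hochberg adjustment and 2 without the 4 arrays with muscle transcripts. With 1 animal left out they ranged from 2 to 5, and were 2 without wild-type vehicle animal 2 and 2 without wild-type TM animal 2. The 14 calls between genotypes after TM became 4 by the methods' t-test after adjustment, and the 8 in the difference of responses became 14 with Btf3 and Ppia scaling. Without the arrays with muscle transcripts, which leaves 1 Atf6a-/- TM array assumed to vary like the others, 16 carriers were called in the Atf6a-/- response (16 of them of the 17), 11 between genotypes after TM (10 of the 14) and 7 in the difference of responses (6 of the 8). The labels do not say whether animal numbers pair mice. Arrays of different groups were correlated after the mean of its group was subtracted from each probe set value. These correlations ran from -0.18 to 0.373 for same-numbered arrays and from -0.353 to 0.221 for differently numbered ones. With the number as a replicate block the calls were 3, 17, 14, 0 and 10 in the order wild-type response, Atf6a-/- response, genotypes after TM, genotypes after vehicle and difference of responses. Dim probe sets limit 6 carriers in all groups and 7 in at least 1 group, and RMA compresses differences near the array's floor and top.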
